A study of Mus musculus with 6 samples.

Results

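The genes examined here carry sodium and chloride across epithelia or set the number and activity of the channels that do. They are the epithelial sodium channel (ENaC) subunit genes Scnn1a, Scnn1b and Scnn1g, the channel-activating protease gene Prss8, the ubiquitin ligase gene Nedd4l, the sodium pump subunit gene Atp1b1, the chloride channel genes Cftr and Clcn2 and the cation-chloride cotransporter gene Slc12a2. They were taken by name, and every probe set annotated to exactly 1 gene and to one of these 9 was kept, which gave 21 of the 45037 probe sets that are not array controls. Scnn1a, Scnn1b, Scnn1g, Prss8 and Clcn2 had 1 probe set each, Cftr 2, Slc12a2 3, Atp1b1 5 and Nedd4l 6. No value of the arrays entered this choice, although earlier results of the same arrays were known when the genes were picked.

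The study asked which genes the transcription factor GATA6 controls in the lung. Total RNA of embryonic mouse lungs at E18.5 was hybridised to 6 Affymetrix Mouse430_2 arrays, 3 labelled GATA6 KO (KO 1 to KO 3) and 3 labelled wild-type (WT 1 to WT 3). The strain, the Gata6 allele, the cells in which it was deleted and any Cre driver are not given in the sources used here, nor whether an array holds 1 embryo or a pool, so p-values measure only the spread between arrays, which may be partly technical. Levels below are log2(intensity + 16), and the number of arrays limits their precision.

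Before birth the lung is filled with liquid that its epithelium secretes. In that process NKCC1, the protein of Slc12a2, loads chloride into the cell across the basolateral membrane, and apical channels such as CFTR let it out. Around birth the epithelium turns to absorption: sodium enters through apical ENaC and the Na,K-ATPase pumps it out on the basolateral side. Prostasin, the protein of Prss8, raises ENaC activity by cleavage, and NEDD4-2, the protein of Nedd4l, binds the tails of the channel subunits and marks them for removal from the membrane.

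Several features of the arrays bear on all values. All 3 arrays labelled KO went through fluidics station 2 together with WT 3, while WT 1 and WT 2 went through station 1, so station 2 alone holds both labels. The arrays labelled WT were scanned first, so scan order and label cannot be told apart. The arrays KO 2, KO 3 and WT 1 stood apart from KO 1, WT 2 and WT 3 on the first principal component (45.1% of the variance over genes), and their bright probe sets without a gene name read higher relative to the named ones (-0.46, -0.03 and -0.23 log2, against -0.96, -1.02 and -0.94). The targeted gene was not lower under the KO label. The brightest Gata6 probe set gave 11.58, 11.39 and 11.19 in KO 1 to KO 3, against 11.12, 10.26 and 10.42 in WT 1 to WT 3. Where that probe set lies relative to the deletion is not known here, so the labels remain unchecked and each direction is one between labels. The lung and airway markers Sftpc, Ager and Scgb1a1 were bright on the arrays, while the kidney markers Umod, Slc12a1 and Aqp2 lay at the floor. Among the lung epithelial markers measured, Nkx2-1 was the only dim one.

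Across the 21 probe sets, 15 had a lower mean in KO than in WT arrays (37.0% of all probe sets did) and 6 a higher one. Of the 16 bright members 10 were lower, where 54.0% of all bright probe sets were. The median log2 difference was -0.154, beside 0.003 over all 45037 probe sets, and -0.181 for the 16 members above the bright level of 6.88, beside -0.022 for all 16029 such probe sets. In limma, 0 of the 21 passed an adjusted p of 0.05, where the background was 0.0% (0 of 45037 passed). At an unadjusted p under 0.05 there were 5 (background 3.1%), of which 3 were lower (background 1.74%) and 2 higher (1.35%). The 3 lower ones were those of Scnn1a, Scnn1b and 1 of Nedd4l, and the 2 higher ones both belonged to Atp1b1. The same 5 were the probe sets whose groups did not overlap: 3 had all KO arrays below all WT arrays (background 2.76%, or 5.79% of bright probe sets) and 2 had all KO arrays above (5.72%, or 4.59% of bright ones). Probe sets of a gene report on the same transcripts, so these counts are not of independent measurements.

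**Figure D1:**
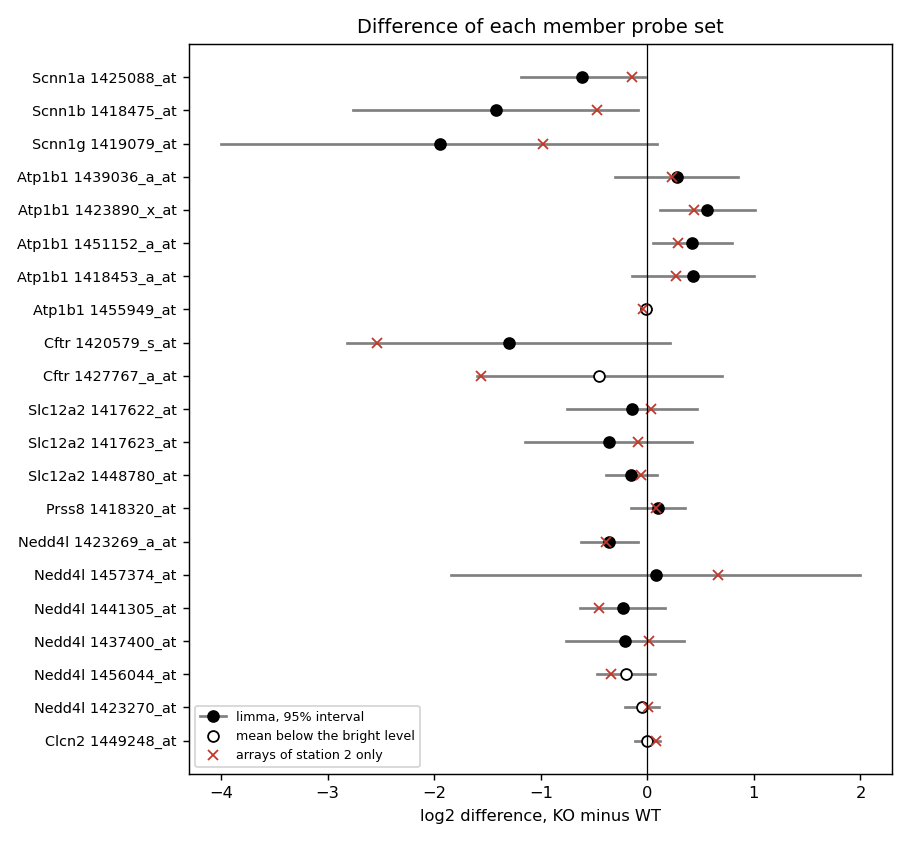
Log2 difference, KO minus WT, for each of the 21 probe sets, with 95% intervals from limma as grey lines. Filled circles are bright probe sets, open circles those with a mean below 6.88, and red crosses the difference among the 4 arrays of fluidics station 2. The ENaC subunits and the bright Cftr probe set lie on the left at -0.61 to -1.95, Atp1b1 lies right of 0 in its 4 bright probe sets, and the ENaC crosses lie nearer to 0 than their circles.

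The ENaC subunit genes gave the widest differences together with Cftr. Scnn1b and Scnn1g are next to each other on chromosome 7, with 1 long noncoding RNA gene, Gm36848, between them, while Scnn1a is on chromosome 6. Because the subunit genes varied together over the arrays and Atp1b1 had differences of the opposite sign, the sequence just before the first base of Scnn1g, Scnn1b and Atp1b1 is shown, 5′ to 3′ (RefSeq, GRCm38.p6). Capitals mark GC boxes (GGGCGG on either strand) and CCAAT boxes (CCAAT on either strand). Promoters of 5 of the 9 genes were matched in the table used.
Scnn1g, chr7:121734229-121734419, plus strand: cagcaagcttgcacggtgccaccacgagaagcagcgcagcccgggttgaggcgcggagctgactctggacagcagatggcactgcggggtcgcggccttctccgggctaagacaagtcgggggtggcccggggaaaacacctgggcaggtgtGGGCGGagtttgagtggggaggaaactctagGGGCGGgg
Scnn1b, chr7:121864788-121865037, plus strand: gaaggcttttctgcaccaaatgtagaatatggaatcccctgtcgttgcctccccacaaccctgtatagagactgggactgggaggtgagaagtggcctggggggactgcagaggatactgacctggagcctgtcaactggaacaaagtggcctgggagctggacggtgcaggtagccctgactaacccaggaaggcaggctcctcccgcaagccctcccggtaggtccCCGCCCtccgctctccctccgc
Atp1b1, chr1:164458356-164458605, minus strand: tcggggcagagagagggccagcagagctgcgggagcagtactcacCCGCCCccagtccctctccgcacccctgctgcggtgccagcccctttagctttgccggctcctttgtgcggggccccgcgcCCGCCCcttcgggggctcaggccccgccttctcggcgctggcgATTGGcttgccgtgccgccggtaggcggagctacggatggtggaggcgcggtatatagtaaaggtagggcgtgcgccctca
The Scnn1g stretch, 191 bases long, holds 2 GC boxes, the Scnn1b stretch, 250 bases long, holds 1, and the Atp1b1 stretch, also 250 bases, holds 2 GC boxes and 1 CCAAT box. A GC box occurs in 23.1% of 32851 RefSeq promoters over 191 bases and in 32.7% over 250 bases, and a CCAAT box in 33.8% over 250 bases. The usual GATA factor words, which are GATAA or GATAG preceded by A or T, were searched on both strands and are not in any of the 3 stretches, while 22.4% of promoters hold one over 191 bases and 26.5% over 250 bases. The half-site TGTTCT of the glucocorticoid receptor is not in them either (12.8% and 16.1% of promoters). The 250 bases before Cftr, not shown, were searched too. They hold 6 GC boxes, some of which share bases, and no CCAAT box, GATA word or TGTTCT. The letters shown describe the windows only, and the words marked do not overlap one another in the 3 stretches.

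Scnn1a encodes the alpha subunit, without which the channel barely conducts. It read 7.91, 8.21 and 8.14 in the arrays labelled KO 1, KO 2 and KO 3, against 8.83, 9.03 and 8.22 in WT 1, WT 2 and WT 3. The groups did not overlap, but the margin was 0.013 log2, between KO 2 and WT 3. Means were 8.09 ± 0.16 in the KO arrays and 8.69 ± 0.42 in the WT arrays (SD, n = 3 each), which is a log2 difference of -0.61 (SE 0.24, 95% interval -1.19 to -0.02, limma adjusted p = 0.963) or 0.656-fold.

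Scnn1b encodes the beta subunit. Its levels were 5.47, 6.71 and 6.61 in KO 1, KO 2 and KO 3, against 8.08, 8.24 and 6.73 in WT 1, WT 2 and WT 3. Here too WT 3 sat just above the highest KO array, by 0.026 log2, and the other WT arrays stood well above it. The difference was -1.42 (SE 0.54, 95% interval -2.76 to -0.09, limma adjusted p = 0.963), or 0.373-fold. The gene was near the low end of the scale in KO 1, at a linear intensity of 28.3, and the difference ran from -1.65 with a pseudocount of 1 to -1.02 with 64.

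Scnn1g encodes the gamma subunit, whose extracellular loop is a site of activating cleavage. It read 6.25, 9.21 and 8.11 in KO 1, KO 2 and KO 3, against 10.22, 10.38 and 8.84 in WT 1, WT 2 and WT 3. KO 2 lay above WT 3, so the groups overlapped. The difference of -1.95 (SE 0.83, 95% interval -4.0 to 0.09, limma adjusted p = 0.963) was 0.258-fold, with KO means of 7.86 ± 1.49 and WT means of 9.81 ± 0.85 (SD, n = 3 each). It was -1.15 without KO 1 and -2.63 without KO 2.

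The 3 subunit genes ordered the arrays almost alike. For Scnn1a and Scnn1b the order from high to low was WT 2, WT 1, WT 3, KO 2, KO 3 and KO 1, and for Scnn1g it was the same with WT 3 and KO 2 exchanged. Thus WT 3, washed on the station of the KO arrays, lay nearer to KO 2 than to the other WT arrays in all 3 genes. The order of Scnn1a and Scnn1b was also that of the arrays on the second principal component (28.3% of the variance over genes). There WT 2, WT 1 and WT 3 lay at 26.5, 19.9 and 4.2, and KO 2, KO 3 and KO 1 at -4.4, -22.9 and -23.4. The order is therefore not particular to the ENaC genes. Among the arrays of station 2, the difference was -0.14 (SE 0.26) for Scnn1a, -0.47 (SE 0.67) for Scnn1b and -0.98 (SE 1.22) for Scnn1g, each with an adjusted p of 1 in limma, where WT is the single array WT 3 and is assumed to vary like the KO arrays. Without WT 3 the differences were -0.84, -1.9 and -2.44 in the same order of genes. With a covariate for how far each array's bright probe sets without a gene name lie above those with one, they were -0.66, -1.66 and -2.3. The part of the fluidics station in these differences was not tested beyond these values.

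**Figure D2:**
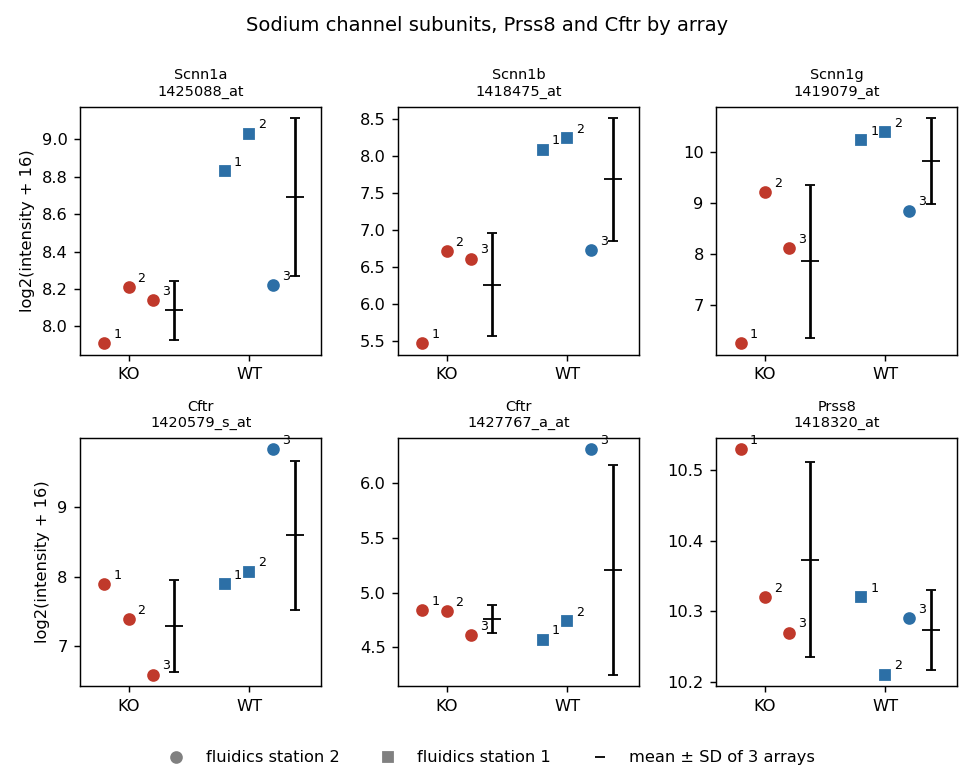
Log2(intensity + 16) of the probe sets of Scnn1a, Scnn1b, Scnn1g, Cftr and Prss8, with KO arrays in red on the left and WT arrays in blue on the right of each panel and the array number beside each point. Circles are arrays of fluidics station 2, squares those of station 1, and black bars are the mean and SD of 3 arrays. In the ENaC panels WT 1 and WT 2 stand above the other 4 arrays. In the Cftr panels WT 3 alone is high.

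Alveolar type I cells are one of the cell types that carry ENaC in the alveolus. The mean level of their markers varied over the arrays much as that of the subunit genes did, but not every marker did so. All 8 listed type I markers read lower in the arrays labelled KO, with a median log2 difference of -1.32, and 0 passed in limma. None was dim on these arrays, and their summed intensity ran from 30900 to 67800 in the KO arrays, against 69500 to 88600 in the WT arrays. Centred on the 6 arrays, the mean level of the type I list was -1.84, 0.5 and -0.78 in KO 1, KO 2 and KO 3, against 0.98, 0.88 and 0.26 in WT 1, WT 2 and WT 3. The same mean over the 3 ENaC genes was -1.52, -0.03 and -0.45 in KO 1, KO 2 and KO 3, against 0.98, 1.15 and -0.13 in WT 1, WT 2 and WT 3. KO 1 was thus the lowest array for both, as it was for the myeloid (-0.54), heart (-0.73) and pancreas (-0.61) marker lists. It was not the lowest in the remaining marker lists. Among the type I markers Cldn18 and Akap5, named after their values were seen, did not have the low WT 3 of the ENaC genes. Cldn18 was highest in WT 3 (13.48, beside 13.31 in WT 1 and 13.22 in WT 2). Akap5 was level over the WT arrays (12.6 to 12.62). In the other type I markers WT 3 was the lowest WT array. Markers of type II cells had a median of -0.19 over 7 measured genes, 5 of them lower, and the 8 general epithelial markers a median of 0.06, 4 lower and 4 higher. Outside the alveolar epithelium, all 5 endothelial markers read lower (median -0.68), with a summed intensity of 4150 to 5470 in the KO arrays, against 4290 to 7620 in the WT arrays. All 4 smooth muscle markers read lower too (median -0.26), with sums of 6340 to 9020 in the KO arrays, against 7310 to 10800 in the WT arrays. All 4 ciliated cell markers read higher (median 0.61), with sums of 1380 to 2110 in the KO arrays, against 894 to 1300 in the WT arrays. Other lists were mixed: club 1 lower and 2 higher (median 0.24) and mesenchyme 3 and 3 (-0.01). The myeloid list had 3 lower and 1 higher (-0.16), and the heart list 1 lower and 2 higher (0.09). The erythroid and pancreas lists had 1 lower and 1 higher each. Of all bright probe sets, 54.0% read lower in the KO arrays. None of the cell type markers passed in limma. The part of these cells in the ENaC differences was not tested, and in whole lung RNA fewer cells of a type and less RNA per cell cannot be told apart.

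**Figure D3:**
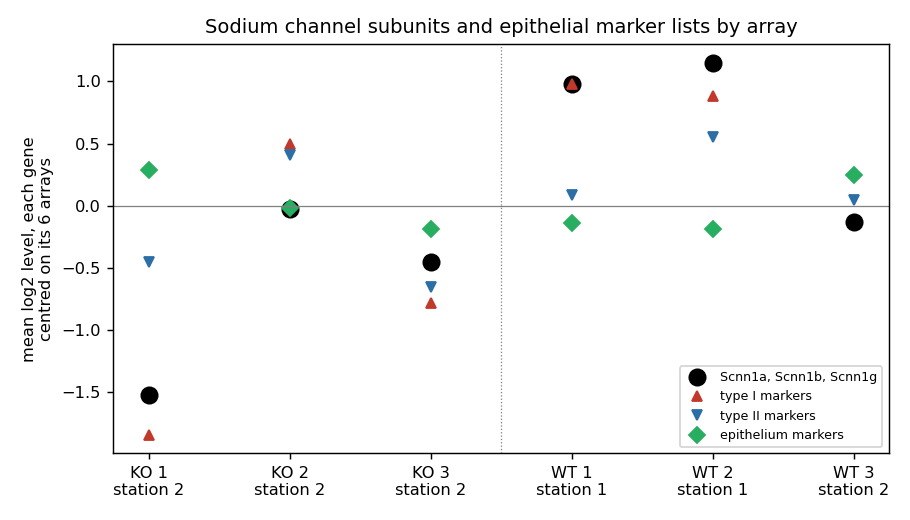
Mean log2 level by array for the 3 ENaC subunit genes (black) and for the marker lists of type I cells (red), type II cells (blue) and epithelium in general (green), each gene centred on its 6 arrays. KO arrays are left of the dotted line and WT arrays right of it. ENaC and type I points are lowest in KO 1 and high in WT 1 and WT 2, while the epithelium points stay between -0.19 and 0.29.

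By the Pearson correlation over the 6 arrays with the mean ENaC profile, the genes most alike among 9088 brighter genes were Icam2 (r = 0.997), Bcar3 (0.991), Irf1 (0.987), Gnb4 (0.985) and Dennd3 (0.985). Icam2, an adhesion molecule of endothelium and leukocytes, read 10.36, 10.99 and 10.74 in KO 1, KO 2 and KO 3, against 11.36, 11.43 and 10.93 in WT 1, WT 2 and WT 3. With so few arrays many genes reach a high value: 155 of the 9088 had r above 0.9. The arrays share their stations and their scan order, so the likeness is a description only.

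Prss8, whose protease product activates ENaC, varied little, at 10.53, 10.32 and 10.27 in KO 1, KO 2 and KO 3, against 10.32, 10.21 and 10.29 in WT 1, WT 2 and WT 3. The groups overlapped, with a difference of 0.1 (SE 0.1, 95% interval -0.15 to 0.35, limma adjusted p = 0.963). That interval leaves out a change as wide as the estimate over all 6 arrays for any ENaC subunit, in either direction. It overlaps the interval of Scnn1a (-1.19 to -0.02), and it holds the Scnn1a estimate among the arrays of station 2 (-0.14).

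Nedd4l was read by 6 probe sets, and they did not all go one way. The brightest, 1423269_a_at, gave 12.16, 12.42 and 12.29 in KO 1, KO 2 and KO 3, against 12.75, 12.52 and 12.67 in WT 1, WT 2 and WT 3. All KO arrays lay below all WT arrays, by at least 0.1 log2, and the difference was -0.36 (SE 0.11, 95% interval -0.62 to -0.09, limma adjusted p = 0.963), or 0.781-fold. It was nearly the same among the arrays of station 2, at -0.39 (SE 0.17). Of the other 5 probe sets, 4 read lower by 0.05 to 0.23 on the log2 scale with overlapping groups, and 2 of those 4 were near the floor.

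The exception was 1457374_at, with 8.53, 10.2 and 10.91 in KO 1, KO 2 and KO 3, against 11.01, 9.17 and 9.22 in WT 1, WT 2 and WT 3. Its high arrays were KO 2, KO 3 and WT 1, the same ones that read high on bright probe sets without a gene name, and its low arrays were the other 3. The difference between labels was 0.08 (SE 0.78, 95% interval -1.84 to 2.0), and with the composition of each array as a covariate it was -0.53 (SE 0.15, limma adjusted p = 0.75). This probe set thus followed the split between arrays that crosses the labels, which the brightest Nedd4l probe set did not.

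**Figure D4:**
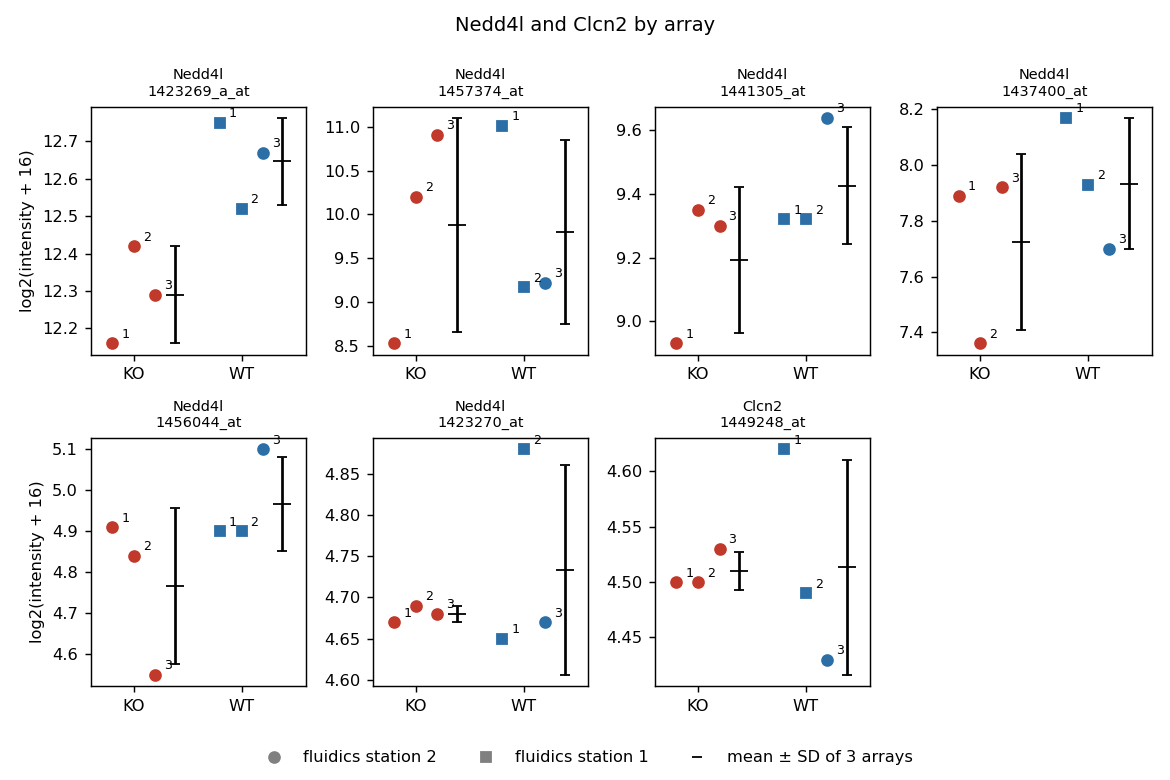
Log2(intensity + 16) of the 6 probe sets of Nedd4l and of the 1 of Clcn2, drawn as in the plot of the ENaC subunits, each panel on its own scale. The brightest Nedd4l probe set separates KO from WT, 1457374_at is high in KO 2, KO 3 and WT 1, and the panels of 1456044_at, 1423270_at and Clcn2 span little more than the floor of the arrays.

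Atp1b1, the beta subunit through which the Na,K-ATPase reaches the membrane, had differences of the opposite sign to those of ENaC. Its 4 bright probe sets all read higher in the arrays labelled KO, by 0.28 to 0.56 on the log2 scale. Probe set 1423890_x_at gave 13.49, 12.83 and 13.06 in KO 1, KO 2 and KO 3, against 12.46, 12.54 and 12.68 in WT 1, WT 2 and WT 3. Every KO array lay above every WT array, and the difference was 0.56 (SE 0.18, 95% interval 0.12 to 1.01, limma adjusted p = 0.963), or 1.48-fold. Probe set 1451152_a_at did not overlap between the labels either, with 13.21, 12.71 and 12.96 in KO 1, KO 2 and KO 3, against 12.47, 12.48 and 12.67 in WT 1, WT 2 and WT 3, a difference of 0.42 (SE 0.15, limma adjusted p = 0.963).

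The remaining bright Atp1b1 probe sets overlapped. The brightest, 1439036_a_at, read 14.19 in KO 1, against 13.45 and 13.35 in KO 2 and KO 3 and 13.3, 13.42 and 13.43 in WT 1, WT 2 and WT 3, so its difference of 0.28 (SE 0.23) was 0.02 without KO 1. Probe set 1418453_a_at differed by 0.43 (SE 0.23), and by 0.19 without KO 1. KO 1 was the highest array in all 4 bright probe sets, where it was the lowest in all 3 ENaC genes. By mean centred level KO 1 was also highest for the general epithelial markers (0.29, beside 0.25 in WT 3). So it was for the club (0.36) and mesenchyme (0.27) markers, but not for the remaining marker lists. In the pathway list below, KO 1 was highest for ENaC proteases and inhibitors (0.35) and for ENaC control (0.2). It was not the highest in the other subgroups of that list. Probe set 1455949_at lay at the floor, at 4.34 to 4.39 on every array. The suffixes _a and _x mark probe sets that read several transcripts of the gene or may bind other sequences.

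**Figure D5:**
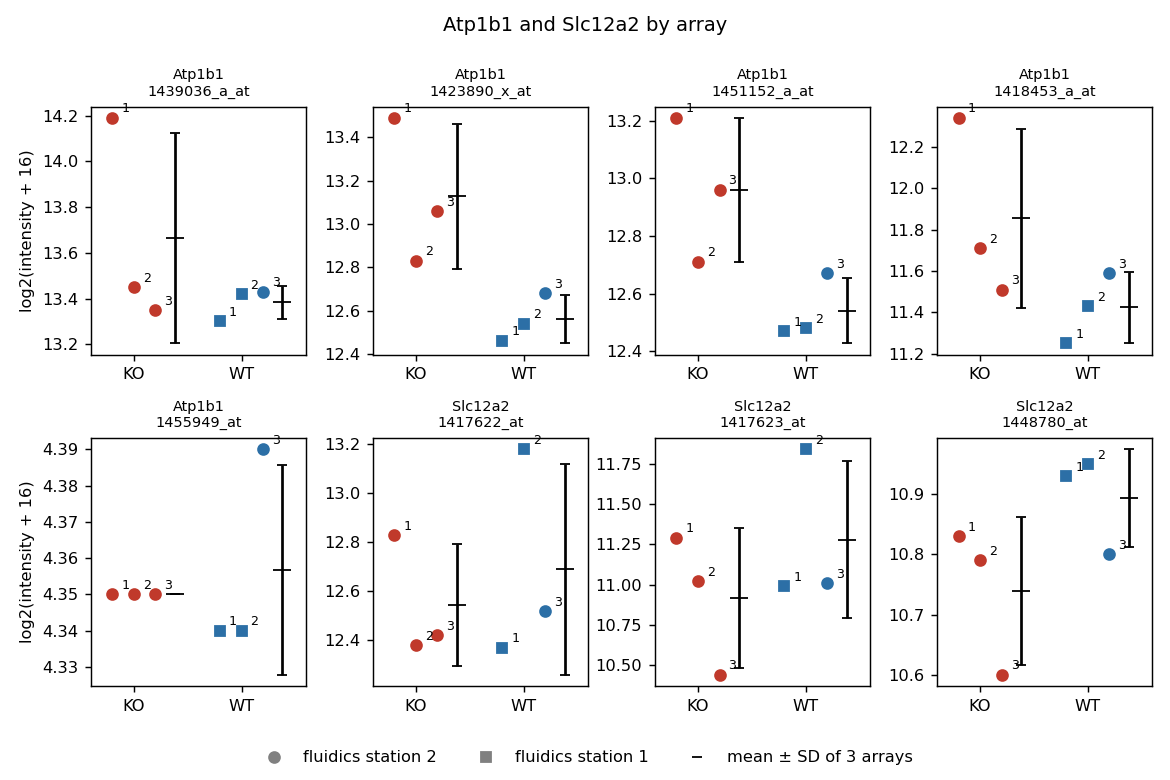
Log2(intensity + 16) of the 5 probe sets of Atp1b1 and the 3 of Slc12a2, drawn as in the plot of the ENaC subunits, each panel on its own scale. KO 1 tops the 4 bright Atp1b1 panels, and WT 2 tops every Slc12a2 panel.

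Of the chloride genes, Cftr, the cAMP-gated channel mutated in cystic fibrosis, had the widest difference, and its size depended on 1 array. Its brighter probe set, 1420579_s_at, read 7.89, 7.39 and 6.59 in KO 1, KO 2 and KO 3, against 7.89, 8.07 and 9.83 in WT 1, WT 2 and WT 3. WT 3 stood far above the rest, and KO 1 and WT 1 were level. The difference was -1.3 (SE 0.61, 95% interval -2.82 to 0.21, limma adjusted p = 0.963), -0.69 without WT 3 and -2.54 (SE 0.58, limma adjusted p = 1) among the arrays of station 2. The dimmer probe set, 1427767_a_at, was near the floor in 5 arrays (4.57 to 4.84) and read 6.31 in WT 3. Its difference of -0.45 (SE 0.47) turned to 0.1 without that array. Thus WT 3, the lowest of the WT arrays for ENaC, was the highest for both Cftr probe sets.

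Slc12a2, the basolateral route of chloride into secreting cells, overlapped between the labels in all 3 probe sets. The brightest, 1417622_at, read 12.83, 12.38 and 12.42 in KO 1, KO 2 and KO 3, against 12.37, 13.18 and 12.52 in WT 1, WT 2 and WT 3, a difference of -0.14 (SE 0.25, 95% interval -0.75 to 0.47). Probe sets 1417623_at and 1448780_at differed by -0.36 (SE 0.32) and -0.15 (SE 0.1). WT 2 was the highest array in each, and without it the brightest differed by 0.1 and 1417623_at by -0.08. Without KO 3 the differences of 1417623_at and 1448780_at were -0.12 and -0.08. Clcn2, a voltage-gated chloride channel gene of fetal airways, lay between 4.43 and 4.62 on every array, near the floor, where a lower level could not be seen.

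Other genes of the pathway were read from a list of 60 genes, 52 of which had a probe set naming 1 gene, each taken by its brightest probe set. In limma 0 of the 52 passed, beside 0.0% of the 18193 genes so represented. At an unadjusted p under 0.05, 4 were lower (2.42% of genes) and 1 higher (1.88%). The median difference was -0.02, with 28 lower and 24 higher, beside a median of 0.003 over the 18193 genes, and 20 of the 52 were dim. Of the 32 bright ones 24 were lower and 8 higher. Among all bright probe sets 54.0% were lower, a share that is not limited to the brightest probe set of each gene. All KO arrays lay below all WT arrays in 6 of the 52 (3.81% of genes) and above them in 1 (5.89%).

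Of the 5 genes with an unadjusted p under 0.05, all but Ano1 are named after their values were seen. Kcnj15, an inward rectifier potassium channel gene, read 9.44, 9.33 and 9.18 in KO 1, KO 2 and KO 3, against 9.84 to 10.1 in the WT arrays (difference -0.66, SE 0.12, limma adjusted p = 0.963). Slc9a3r2, a PDZ scaffold that binds the tail of CFTR, differed by -0.83 (SE 0.17), and Ano1, the calcium-activated chloride channel, by -0.86 (SE 0.2), with 10.52 to 11.25 in the KO arrays and 11.64 to 11.68 in the WT arrays. These 3 genes, unlike the ENaC subunits and Cftr, had WT 3 close to the WT arrays of the other station. Clcn7, a lysosomal chloride transporter gene, differed by -0.47 (SE 0.19).

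Fxyd3, a small regulator of the Na,K-ATPase, was the gene on the higher side. It read 12.4, 11.52 and 11.79 in KO 1, KO 2 and KO 3, against 10.44, 10.36 and 11.6 in WT 1, WT 2 and WT 3, a difference of 1.1 (SE 0.4, limma adjusted p = 0.963). WT 3 lay above KO 2, so the groups overlapped, and WT 3 sat among the KO arrays as it did for Scnn1g. Atp1b3, another beta subunit gene, chosen here after its values were seen, differed by -0.22 (SE 0.11), where the bright Atp1b1 probe sets had positive differences.

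By subgroup, the 6 genes for ENaC proteases and their inhibitors had 3 lower and 3 higher, and St14, the membrane protease matriptase, differed by 0.03 (SE 0.31). Of 14 genes that control ENaC, 10 were lower and 4 higher with a median of -0.16. The 10 lower ones were the bright ones and the 4 higher ones the dim ones (Sgk2, Nr3c2, Hsd11b2 and Wnk4), and none passed. Sgk1, the hormone-induced kinase that holds NEDD4-2 off the channel, differed by -0.17 (SE 0.31). The 15 other chloride, bicarbonate and cation-chloride transporter genes had 7 lower and 8 higher, and the 8 bright ones among them 5 lower and 3 higher. The scaffold gene Slc9a3r1 differed by 0.14 (SE 0.14) and the potassium channel gene Kcnq1 by -0.52 (SE 0.51).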

How the data were processed

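The labels describe total RNA of mouse lungs on Mouse430_2 arrays. The authors deposited linear intensity values per probe set, and per the submitters' processing notes GCRMA and MAS5 were used, without version, role or order, so which of them made the values is not stated. No value was negative and the quartiles of the arrays lay close together, so the arrays were taken as normalised to each other.

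Values were transformed to log2 after adding 16. Probe sets were named from the platform annotation, updated by gene ID through GRCm38.p6 (34741 of 34945 naming 1 gene), and 64 controls of 45101 probe sets were left out. The array files gave fluidics station and scan order. The label difference, KO minus WT, was fitted over all 45037 probe sets with limma 3.58.1 in R 4.3.3 (lmFit, eBayes with trend), two-sided, with Benjamini-Hochberg adjustment. The fit was tested on simulated data. Bright means a mean above 6.88, the median over genes of their brightest probe set. The text names every member probe set, Gata6, the first gene of each pathway subgroup where analysed here, genes past the threshold and the 5 most like the ENaC mean; others are said to be chosen later. Members and lists were chosen with earlier results of these data known.

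Same-numbered arrays were not taken as pairs: their residuals correlated at -0.613, 0.0971 and -0.311 over genes, and no label ties them. The 18 alternatives changed the pseudocount, normalisation, filter, variance model, probe set choice, arrays, blocks or a covariate for RNA composition.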

Additional observations from a re-analysis of the deposited data

How the results depend on the processing

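None of the 21 probe sets passed an adjusted p of 0.05 under any of the 18 alternatives in limma. The lowest adjusted p was 0.0745, for the dimmer Cftr probe set with fluidics station as a block (-1.56), a fit that rests on WT 3 as the only WT array of station 2. The difference was 0.1 without that array. The median difference of -0.154 was -0.357 with the brightest probe set of each gene, -0.037 with fluidics station as a block and also -0.037 among the arrays of station 2, and -0.201 to -0.082 leaving out each array in turn. The count of 3 probe sets with all KO arrays below all WT arrays (2.76% of all probe sets) became 8 among the arrays of station 2, where WT is 1 array and 7214 of all 45037 probe sets were so separated, and ran from 3 to 6 leaving out each array. It was 6 without KO 1 (10.5% of all probe sets), 5 without KO 2 (5.6%) and 6 without WT 3 (5.31%). With a replicate block 0 probe sets passed, so pairing by number added no call. That block is balanced over the labels, so the median of -0.154 could not move under it.

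Of 349 probe set differences recomputed, 328 kept their direction. Some of the alternatives cannot move a difference, so that count overstates how far the directions were tried. They are the variance model without trend, the replicate block, the filter on dim probe sets and the brightest probe set alone. Station as a block gives the same differences as the arrays of station 2, and both enter the count. The reversals lay in 7 probe sets. Nedd4l 1457374_at (0.08) was -0.53 with the composition covariate and ran from -0.44 to 0.76 leaving out each array. With station as a block, and equally among the arrays of station 2, Slc12a2 1417622_at was 0.026, Nedd4l 1437400_at 0.024, Nedd4l 1423270_at 0.013 and Clcn2 0.08. Clcn2 was 0.0044 with a pseudocount of 1. Leaving out each array, Clcn2 ran from -0.043 to 0.052, Slc12a2 1417622_at from -0.3 to 0.1, Nedd4l 1423270_at from -0.095 to 0.024, Atp1b1 1455949_at from -0.015 to 0.0093 and Cftr 1427767_a_at from -0.77 to 0.1. The causes were not tested. The ENaC subunits, the 4 bright Atp1b1 probe sets, Prss8 and the brightest probe sets of Nedd4l and Cftr kept their direction in every alternative run. Leaving out 1 array moved Scnn1b to between -1.9 and -1.03 and Scnn1g to between -2.63 and -1.15. The 5 dim probe sets lie near the floor of the arrays, where a lower level could not be seen, apart from Cftr 1427767_a_at in WT 3.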
